A study of Sus scrofa domesticus with 9 samples.

Results

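Cell cycle and DNA replication genes were examined in the lung mRNA of 9 pigs, 5 on an increased dose and 4 on a standard dose of cholecalciferol, the form of vitamin D given in the feed. Of 37 gene symbols on the list, 32 were named in the table of normalized counts, which held 35670 genes. A mean normalized count over 20 was reached by 21 of these 32 genes, and these 21 were tested. Of the 5 symbols not named in the table, PCNA and CCNE1 were found through the Ensembl name table and MKI67 and AURKA through RefSeq genes that covered at least 80% of the same interval on the same strand, and they are given beside the 32. RRM2 was not matched to a row and is not analysed here. The labels and the methods give all animals as female, while the discussion of the study speaks of males, and the labels were followed.

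Each kg of grower feed supplied 3000 IU of the vitamin to increased dose animals and 2000 IU to standard dose animals. Each kg of finisher feed supplied 2500 IU to increased dose and 1500 IU to standard dose animals, and feeding lasted 88 days in both groups. Lung was taken from 1 region of the left upper lobe, and each animal gave 1 library. Values are listed for increased dose replicates 3, 19, 27, 51 and 59 and for standard dose replicates 9, 17, 33 and 41, in that order, replicates being named by animal number. A normalized count is the number of reads of a gene divided by the size factor of its library. The libraries were made by 3′ mRNA-Seq, which reads each transcript once near its 3′ end, so a count was not divided by transcript length.

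The cell cycle is driven by cyclins that activate cyclin-dependent kinases in turn. D-type cyclins act in G1 phase, where the retinoblastoma proteins are phosphorylated and E2F transcription factors are released. E2F then drives genes for origin licensing and DNA synthesis, and B-type cyclins with CDK1, polo-like and Aurora kinases carry the cell through mitosis. Lung renews slowly, and transcripts of these genes in a tissue homogenate come from the few cells that cycle as well as from resting cells that keep some of them.

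None of the 21 genes differed between the doses in limma with Benjamini-Hochberg adjustment over 12446 genes (smallest adjusted p = 0.418, for MCM6). The background was the same, since 0 of 12446 genes were called (0.0%). At an unadjusted limma p under 0.05 none of the 21 genes passed in either direction, against 5.57% of all genes at higher and 6.6% at lower level with the increased dose. The values of the doses overlapped in all 21 genes, and 3.81% of all genes had groups that did not overlap. DESeq2 on the recovered reads called 1.81% of all genes (225, 41 of them higher and 184 lower) and none of the 21, while edgeR gave no adjusted call and 1873 unadjusted p-values under 0.05. The log2 fold change, increased dose minus standard dose on log2 of the normalized count plus 1, was above 0 in 14 of the 21 genes (66.7%), with a median of 0.21. Over all genes tested 50.8% were above 0 and the median was 0.01. Without standard dose replicates 9 and 41, 10 of 21 genes were above 0 and the median was −0.02, against −0.01 over all genes in that fit. Without replicate 9 alone 13 of 21 were above 0, and without replicate 41 alone 15 of 21. No other pair of libraries was left out.

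Standard dose replicates 9 and 41 stood apart. Their median Spearman correlation with the other 8 libraries was 0.751 (replicate 9) and 0.831 (replicate 41), against 0.912 to 0.933 for the other 7. Recovered reads per library ranged from 4427608 to 5919294 with the increased dose and from 4253502 to 5411543 with the standard dose. The surfactant and other markers of type 2 pneumocytes, cells of the alveolus, were present in every library (7 of 8 symbols found, none at 0, summed normalized counts of 15975 to 29332 with the increased dose and 4091 to 18607 with the standard dose). The 15 hepatocyte markers, genes of liver such as ALB and APOA1, were also present in every library, with sums of 31150 to 65995 with the increased dose and 55601 to 412319 with the standard dose. All 15 had a lower mean with the increased dose at an unadjusted limma p under 0.05, and 4 of them did not overlap. Their mean log2 level was 14.21 in standard dose replicate 9 and 12.12 in replicate 41, against 10.26 to 11.32 in the other libraries. Type 1 pneumocyte markers had a higher mean with the increased dose in 6 of 6 genes (median log2 fold change 1.03, 4 at an unadjusted limma p under 0.05 and 2 without overlap), and type 2 markers in 7 of 7 (median 0.70). All 7 markers of macrophages had a higher mean with the increased dose, and their mean log2 level was 8.63 in replicate 41 against 10.27 to 11.08 elsewhere. That of type 2 markers was 8.35 in replicate 9 against 10.35 to 10.97 elsewhere. The dose difference in mean log2 level was 1.03 for type 1, 0.74 for type 2, 0.78 for macrophage and −1.41 for hepatocyte markers. Without replicates 9 and 41 these differences were 0.53, 0.20, 0.17 and −0.42. The part of these markers in the values below was not tested. In a homogenate, fewer cells of a type and less RNA per cell cannot be told apart.

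Promoter sequences of the members were read from the RefSeq annotation of Sscrofa11.1, from 250 bases before the gene start to 50 bases from it, for all 36 genes that were matched. Words searched on both strands were TTTGGCGC, TTTGCCGC, TTTCGCGC and TTTCCCGC for E2F, CCAAT, the letters bound by NF-Y, and TTTGAA for the cell cycle genes homology region. In human and mouse the last is known from genes that peak in G2 phase and mitosis. An E2F word was present in 7 of 36 members (19.4%) and in 3.25% of 20612 promoters of the same length. CCAAT was present in 25 of 36 members (69.4%), against 35.7% of all promoters, and in 14 of the 16 mitotic members. TTTGAA was present in 13 members (36.1%), against 14.5% of all, and 10 members (27.8%) held CCAAT and TTTGAA together, against 5.86%. Median GC content was 55.5% in the members and 58.0% in all promoters. A match is a description of letters and not of binding. The 2 promoters shown belong to the tested gene with the smallest p (MCM6) and the proliferation marker MKI67, and capitals mark the words on either strand.
MCM6, chr15:15923388-15923687, + strand: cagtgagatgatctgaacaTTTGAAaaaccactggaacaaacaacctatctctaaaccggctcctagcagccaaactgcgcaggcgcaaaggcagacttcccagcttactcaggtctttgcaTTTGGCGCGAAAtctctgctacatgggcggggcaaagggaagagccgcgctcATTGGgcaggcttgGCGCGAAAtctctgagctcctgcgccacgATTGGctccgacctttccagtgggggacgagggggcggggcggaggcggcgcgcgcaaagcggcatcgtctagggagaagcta
MKI67, chr14:137296263-137296562, − strand: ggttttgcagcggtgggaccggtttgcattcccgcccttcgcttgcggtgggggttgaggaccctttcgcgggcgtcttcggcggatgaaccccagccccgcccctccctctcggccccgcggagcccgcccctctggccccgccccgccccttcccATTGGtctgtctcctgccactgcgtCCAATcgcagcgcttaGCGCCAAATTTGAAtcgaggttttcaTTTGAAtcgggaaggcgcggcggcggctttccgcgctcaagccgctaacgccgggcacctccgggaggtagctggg
The MCM6 promoter held 3 E2F words, of which the first and the second overlap on opposite strands, with 2 CCAAT words and 1 TTTGAA. MKI67 held 2 CCAAT words and 1 E2F word, the E2F word lying directly beside 1 of its 2 TTTGAA words.

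Among the G1 phase genes, the D-type cyclins CCND2 and CCND1 carried the highest counts of all members. CCND2 (ENSSSCG00000038694, chr5:66087379-66114571, − strand) had normalized counts of 1797, 1373, 899, 1049 and 1244 in increased dose animals, against 515, 1216, 1294 and 559.6 in standard dose animals. Both low standard dose values were from replicates 9 and 41, and the values of replicates 17 and 33 lay inside the range of the increased dose. The mean was 1273 ± 345 with the increased dose and 895.9 ± 416 with the standard dose (SD, n = 5 and 4), a log2 fold change of 0.59 ± 0.32 (SE, limma adjusted p = 0.436; exact permutation p = 0.175). Without replicates 9 and 41 the log2 fold change was −0.02. CCND3, which serves the same kinases and is best known from lymphoid cells, had counts of 169, 81.0, 138, 132 and 91.5 in increased dose animals, against 239, 103, 117 and 224 in standard dose animals. Here replicates 9 and 41 were the highest of all libraries, and the log2 fold change of −0.43 ± 0.33 (SE, limma adjusted p = 0.559) became 0.10 without them. The last 500 bases of the CCND3 gene model overlap BYSL on the opposite strand. The strand setting of the counting is not given in the sources used here, so how reads of the overlap were assigned is not known. CCND1, the cyclin most tied to growth factor signals, had counts of 773, 525, 608, 689 and 434 in increased dose animals, against 509, 562, 642 and 453 in standard dose animals. Increased dose replicates 3 and 51 lay above every standard dose animal and replicate 59 below, and the groups overlapped, with a log2 fold change of 0.14 ± 0.22 (SE, limma adjusted p = 0.793) and −0.02 without replicates 9 and 41.

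**Figure D1:**
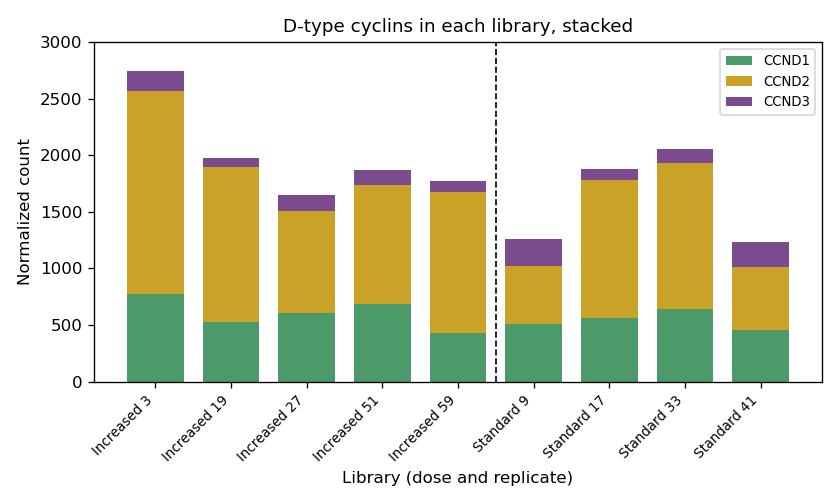
Normalized counts of CCND1, CCND2 and CCND3 stacked for each library, with the 5 increased dose libraries left of the dashed line and the 4 standard dose libraries right of it. CCND2 makes most of the bar in the increased dose libraries and in standard dose replicates 17 and 33, and CCND3 is highest in standard dose replicates 9 and 41, at 239 and 224.

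The sum of the 3 D-type cyclins was 2001 ± 431 with the increased dose and 1608 ± 420 with the standard dose (SD, n = 5 and 4; exact two-sided permutation p = 0.23). CCND2 gave 63.2 ± 7.38% of this sum with the increased dose and 53.4 ± 12.2% with the standard dose (exact permutation p = 0.175, n = 5 and 4). For CCND3 the shares were 6.18 ± 1.67% with the increased dose and 12.1 ± 7.46% with the standard dose (exact permutation p = 0.214, n = 5 and 4). The smallest p that this exact test can give with 5 and 4 libraries is 0.00794. CDK2, the kinase partner of E-type cyclins, had counts of 110.3, 73.4, 90.5, 114 and 82.8 in increased dose animals, against 103, 74.0, 40.9 and 119 in standard dose animals. Its lowest value and its highest were both from standard dose animals (replicates 33 and 41), and its log2 fold change was 0.25 ± 0.33 (SE, limma adjusted p = 0.751). Without replicates 9 and 41 it was 0.75 (limma adjusted p = 0.965). In that fit CDK2 was the 1 member of 21 with an unadjusted limma p under 0.05. The background was 597 of 12152 genes, and none was called after adjustment. CCNE2, an E-type cyclin, ranged from 28.1 to 86.8 with the increased dose and from 27.8 to 67.2 with the standard dose, with a log2 fold change of 0.22, and 0.48 without replicates 9 and 41. Its 3′ end has INTS8 on the opposite strand.

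Of the replication genes, the 6 subunits of the MCM helicase, which is loaded on origins in G1 phase and unwinds DNA in S phase, were all tested. MCM6 (ENSSSCG00000035564, chr15:15923681-15985405, + strand) had counts of 112, 111, 117, 117 and 89.5 in increased dose animals, against 58.2, 114, 70.5 and 62.7 in standard dose animals. All increased dose values exceeded the standard dose values of replicates 9, 33 and 41, and replicate 17 lay among the increased dose animals. The mean was 109.3 ± 11.4 with the increased dose and 76.4 ± 25.8 with the standard dose (SD, n = 5 and 4). This gave a log2 fold change of 0.56 ± 0.27 (SE, limma adjusted p = 0.418; exact permutation p = 0.0635), with a 95% interval of −0.02 to 1.13, or a 0.99-fold to 2.19-fold ratio. The log2 fold change was 0.28 without replicates 9 and 41. MCM5, on an unplaced scaffold, had counts of 56.1, 68.2, 90.5, 42.2 and 49.1 in increased dose animals, against 97.0, 95.1, 69.6 and 64.9 in standard dose animals. It pointed the other way, with a log2 fold change of −0.44 ± 0.30 (SE, limma adjusted p = 0.517), and −0.45 without replicates 9 and 41.

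MCM2 had counts of 66.9, 94.7, 106, 36.1 and 27.0 in increased dose animals, against 46.2, 74.0, 32.2 and 24.6 in standard dose animals. Increased dose replicate 27 was highest and standard dose replicate 41 lowest, and the log2 fold change was 0.50 ± 0.47 (SE, limma adjusted p = 0.64), and 0.24 without replicates 9 and 41. MCM4 had counts of 82.3, 154, 146, 88.6 and 114 in increased dose animals, against 74.6, 152, 114 and 61.6 in standard dose animals. Standard dose replicates 9 and 41 were lowest and replicate 17 was close to the highest increased dose animals, and the log2 fold change was 0.26 ± 0.32 (SE, limma adjusted p = 0.736), and −0.21 without these 2 libraries. MCM7 had counts of 130.2, 142, 151, 162 and 166 in increased dose animals, against 124, 153, 174 and 149 in standard dose animals. These values were close to each other in all animals, with a log2 fold change of 0.01 ± 0.21 (SE, limma adjusted p = 0.994) and a 95% interval of −0.46 to 0.47. MCM3 ranged from 24.7 to 80.1 with the increased dose and from 25.4 to 70.4 with the standard dose, with a log2 fold change of −0.16. MCM7 was the highest subunit in 8 of 9 libraries and MCM3 the lowest in 7 of 9. The sum over the 6 subunits was 544.8 ± 100 with the increased dose and 499.3 ± 110 with the standard dose (SD, n = 5 and 4; exact permutation p = 0.46).

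RRM1, the large subunit of ribonucleotide reductase, which makes deoxynucleotides, had counts of 236, 275, 284, 202 and 233 in increased dose animals, against 243, 242, 228 and 205 in standard dose animals. The animals differed little, with a log2 fold change of 0.09 ± 0.20 (SE, limma adjusted p = 0.861) and an interval of −0.35 to 0.53. PCNA, the sliding clamp of the replicative polymerases, had counts of 261, 406, 364, 369.9 and 380.3 in increased dose animals, against 119, 335, 445 and 128 in standard dose animals. Standard dose replicates 9 and 41 were far below the other 7 libraries, and the log2 fold change of 0.69 ± 0.37 (SE, limma adjusted p = 0.436) was −0.13 without them. CDC6, which brings the MCM helicase to origins, had a mean of 10.1 and was not in the test across genes. Its counts were 28.0, 8.53, 22.6, 5.15 and 10.6 in increased dose animals, against 1.49, 3.66, 9.57 and 1.12 in standard dose animals. The means were 15.0 ± 9.83 with the increased dose and 3.96 ± 3.90 with the standard dose (SD, n = 5 and 4; exact permutation p = 0.0476, unadjusted), from 100 reads in all, and the groups overlapped. Standard dose replicates 9 and 41 held 1 read each, and the other standard dose values, 3.66 and 9.57, lay within or just under the increased dose range. TYMS, thymidylate synthase, had 0 reads in 8 libraries and 1 read in standard dose replicate 17. A count of 0 allows 3 reads, which is 2.56 to 4.48 normalized counts per library. Its 3′ end has ENOSF1 on the opposite strand.

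**Figure D2:**
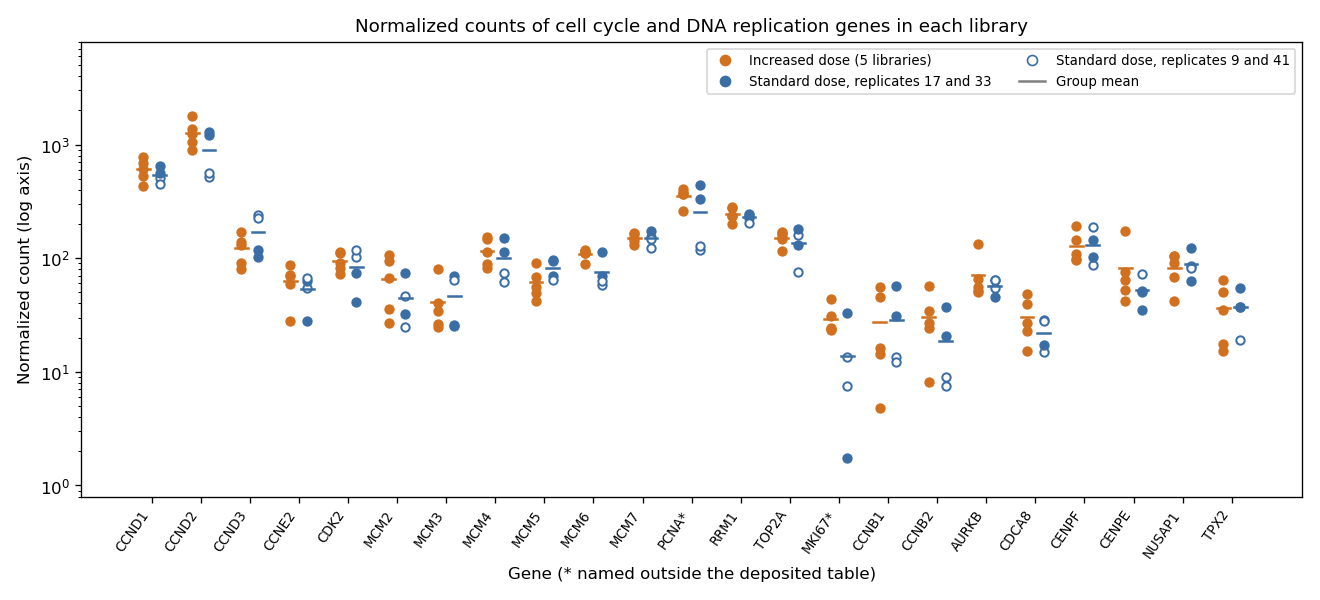
Normalized counts on a log axis for the 21 tested genes and for PCNA and MKI67 (asterisks), each point 1 library, with increased dose left of standard dose for each gene and a short line at the group mean. The standard dose points of replicates 9 and 41 are open and sit lowest for CCND2 and PCNA and highest for CCND3, and no tested gene has groups that do not overlap.

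TOP2A, the topoisomerase that untangles DNA in S and G2 phase, had counts of 159, 171, 165, 146 and 117 in increased dose animals, against 159.6, 181, 130.5 and 76.1 in standard dose animals. Standard dose replicate 41 was lowest and replicate 17 highest, and the log2 fold change was 0.21 ± 0.28 (SE, limma adjusted p = 0.76), and −0.03 without replicates 9 and 41. MKI67 (ENSSSCG00000026302, chr14:137267151-137296387, − strand), the antigen used to stain cycling cells, had counts of 24.4, 43.5, 23.5, 23.7 and 30.8 in increased dose animals, against 7.46, 32.9, 1.74 and 13.4 in standard dose animals. The increased dose values were within 23.5 and 43.5, while the standard dose values spread from below all of them to above 4 of the 5. The means were 29.2 ± 8.55 with the increased dose and 13.9 ± 13.6 with the standard dose (SD, n = 5 and 4), a log2 fold change of 1.51 ± 0.68 (SE, limma p = 0.0464, adjusted p = 0.405; exact permutation p = 0.0556). The ratio had a 95% interval of 1.02 to 7.93. This gene was named by its overlap with RefSeq, and 215 reads in all stand behind it, 5, 36, 2 and 12 of them in the standard dose libraries. The log2 fold change was 1.61 without replicates 9 and 41, from the standard dose values of 32.9 and 1.74 alone. It was 0.87 without standard dose replicate 33, which held 2 reads, and 2.08 without standard dose replicate 17. On the recovered reads edgeR and DESeq2 both gave 1.05 (adjusted p = 0.457 and 0.44). CCNA2, the S phase cyclin, had 20 reads in all and 0 in 5 libraries.

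Among the 16 mitotic genes, 8 of the 15 named in the table were tested, and 4 had a positive and 4 a negative log2 fold change (median 0.10). CCNB2 (ENSSSCG00000004588, chr1:112907047-112942235, − strand), a B-type cyclin, had counts of 8.14, 57.2, 24.4, 34.0 and 27.0 in increased dose animals, against 7.46, 37.5, 20.9 and 8.95 in standard dose animals. Both doses spanned low and high animals, and the log2 fold change of 0.70 ± 0.64 (SE, limma adjusted p = 0.635) was −0.13 without replicates 9 and 41. CCNB1, the B-type cyclin that drives mitotic entry, ranged from 4.81 to 56.3 with the increased dose and from 12.3 to 56.5 with the standard dose. Its 95% interval of the log2 fold change, −1.77 to 1.34, was the widest of the tested members named in the table, and the estimate was −0.21 with all libraries and −1.03 without replicates 9 and 41.

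CENPE, a kinetochore motor that aligns chromosomes, had counts of 52.5, 41.8, 175, 75.2 and 64.5 in increased dose animals, against 50.7, 51.2, 34.8 and 72.8 in standard dose animals. Increased dose replicate 27 was far above every other library, and the log2 fold change was 0.49 ± 0.40 (SE, limma adjusted p = 0.594). It was 0.75 without standard dose replicates 9 and 41 and 0.17 without increased dose replicate 27. AURKB, the kinase of the chromosomal passenger complex, had counts of 66.0, 56.3, 134, 51.5 and 50.1 in increased dose animals, against 55.2, 64.0, 45.2 and 64.9 in standard dose animals. Replicate 27 again stood above all others, and the log2 fold change was 0.22 ± 0.34 (SE, limma adjusted p = 0.786). CDCA8, the borealin subunit of the same complex, had counts of 27.1, 39.2, 48.8, 22.7 and 15.4 in increased dose animals, against 14.9, 28.3, 17.4 and 28.0 in standard dose animals. Replicate 27 was highest and standard dose replicate 9 lowest, and the log2 fold change was 0.40 ± 0.46 (SE, limma adjusted p = 0.72).

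The other tested mitotic genes had log2 fold changes near 0. CENPF, an outer kinetochore protein, ranged from 95.8 to 193 with the increased dose and from 88.02 to 187 with the standard dose (log2 fold change −0.02). NUSAP1, which bundles spindle microtubules, ranged from 42.4 to 104 with the increased dose and from 63.5 to 123 with the standard dose (log2 fold change −0.14), and its 3′ end has NDUFAF1 on the opposite strand. TPX2, the activator of Aurora A on the spindle, ranged from 15.4 to 64.0 with the increased dose and from 19.0 to 54.9 with the standard dose (log2 fold change −0.14, and −0.51 without replicates 9 and 41).

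The remaining members had a mean of 20 or less and were outside the test across genes. CDC20, the activator of the anaphase-promoting complex, averaged 19.6 ± 10.5 with the increased dose and 7.48 ± 4.79 with the standard dose (SD, n = 5 and 4; exact permutation p = 0.0635, unadjusted). PLK1, polo-like kinase, averaged 10.1 ± 6.25 with the increased dose and 18.8 ± 8.32 with the standard dose (exact permutation p = 0.119, n = 5 and 4). CDK1, the mitotic kinase, averaged 9.51 ± 5.19 with the increased dose and 5.26 ± 2.53 with the standard dose, from 73 reads in all. BUB1 and BUB1B, kinases of the spindle checkpoint, averaged 15.6 ± 9.93 and 15.2 ± 3.91 with the increased dose, against 12.4 ± 4.68 and 22.0 ± 10.7 with the standard dose. The kinesins KIF11 and KIF20A, motors of the spindle and of cytokinesis, averaged 19.4 ± 13.5 and 19.5 ± 16.0 with the increased dose, against 19.6 ± 5.86 and 11.4 ± 6.23 with the standard dose. AURKA, the centrosomal Aurora kinase, averaged 14.5 ± 10.7 with the increased dose and 13.6 ± 10.3 with the standard dose. E2F1, the factor of the G1 to S transition, averaged 13.5 ± 9.28 with the increased dose and 17.9 ± 7.77 with the standard dose, and CCNE1 averaged 7.88 ± 9.34 with the increased dose and 2.33 ± 2.45 with the standard dose. The groups overlapped in each of these genes. PLK1, CDK1 and CCNA2 have ERN2, RHOBTB1 and EXOSC9 at their 3′ ends on the opposite strand.

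**Figure D3:**
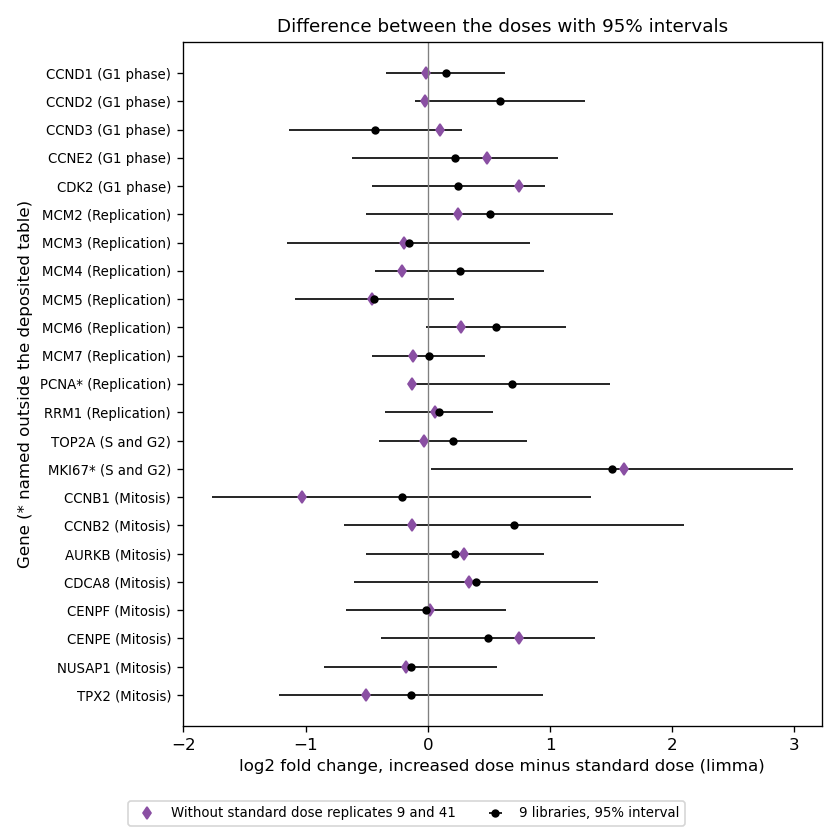
Log2 fold change of each gene, increased dose minus standard dose, from limma with its 95% interval (black), and the value without standard dose replicates 9 and 41 (diamonds), with genes grouped by phase down the page. Every interval of the 21 tested genes includes 0, and the diamonds of CCND2, CCNB2 and PCNA lie just below 0. PCNA and MKI67 (asterisks) are also shown, and the interval of PCNA includes 0 while that of MKI67, 0.03 to 2.99, does not.

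The spread between animals was larger than counting error alone for all 21 tested genes. The variance within groups divided by the variance expected from the reads alone had a median of 11.2 over the 21 genes and 13.5 over all genes tested. It was 135 for CCND2 and 2.03 for MCM7. Averaged over the 21 genes, the log2 level came to 6.50 ± 0.31 with the increased dose and 6.35 ± 0.24 with the standard dose (SD, n = 5 and 4), a difference of 0.15, and 0.02 without replicates 9 and 41. The 32 genes named in the table took 0.0814 ± 0.0136% of all reads in genes with the increased dose and 0.0625 ± 0.0184% with the standard dose. This share was 0.0388% and 0.0577% in standard dose replicates 9 and 41. In replicates 17 and 33 it was 0.0801% and 0.0734%, inside the increased dose range of 0.0690% to 0.103%. Summed normalized counts without the D-type cyclins were 1728 ± 359 with the increased dose and 1558 ± 232 with the standard dose.

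Increased dose replicate 27 was the highest library for 7 of the 21 genes, MCM2, MCM3, RRM1, AURKB, CDCA8, CENPF and CENPE. Its share of the highest values over all genes tested was 7.86%. The mean log2 level of the 8 mitotic genes was 6.30 in this library and 4.90 to 5.95 in the other increased dose libraries, against 5.07 to 5.85 in the standard dose libraries. Its endothelial markers, at a mean log2 level of 8.98, and its T and NK cell markers, at 6.37, were above the other increased dose libraries (8.46 to 8.81 and 6.12 to 6.20), and its type 1 pneumocyte markers, at 8.263, were below them (8.49 to 9.54). Standard dose replicate 17 was higher still for the endothelial and the T and NK cell markers, at 9.00 and 6.38. The type 1 markers of every standard dose library were lower than in replicate 27, at 6.65 to 8.257. On the other 10 marker lists replicate 27 was within the range of the other increased dose libraries, and the part of these markers was not tested. Standard dose replicate 9 had the lowest value of 6 tested members, and 21.3% of the lowest values over all genes tested. Across the 9 libraries the correlation of log2 levels had a median r of 0.24 over the 210 pairs of tested members, 0.46 over the 28 mitotic pairs and 0.33 over the 15 pairs of MCM subunits. The highest was between MCM2 and TPX2 (r = 0.856), followed by AURKB and CENPE (r = 0.84), which share the high value of replicate 27. The lowest was between CCND3 and CCNB2 (r = −0.903), where replicates 9 and 41 were high for CCND3 and low for CCNB2. The points of these correlations share their libraries, doses and size factors.

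**Figure D4:**
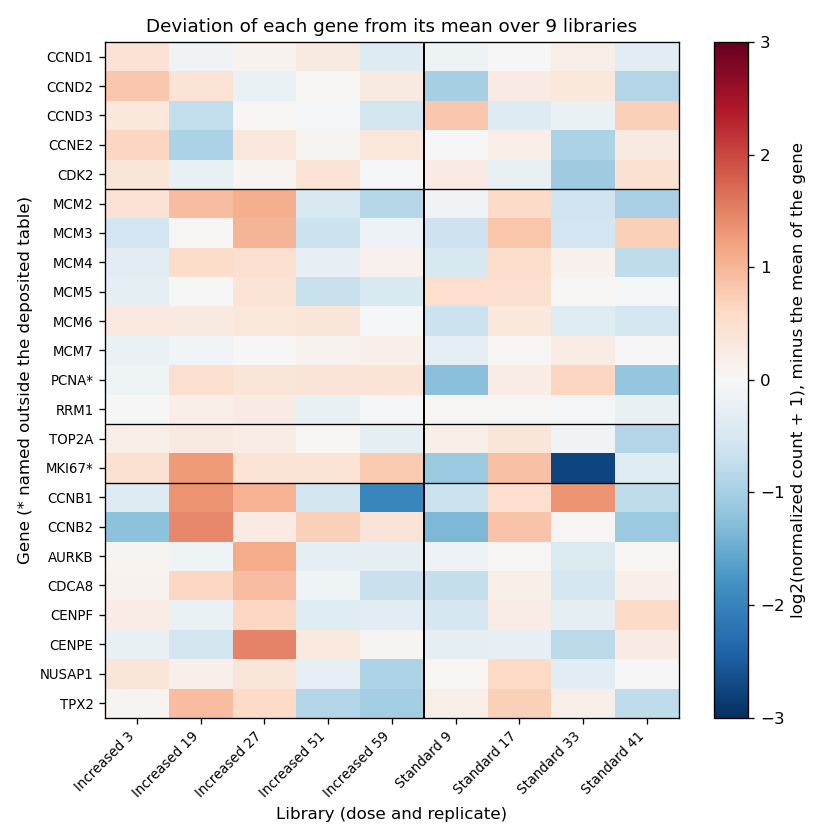
Deviation of log2 of the normalized count plus 1 from the mean of each gene, for the 21 tested genes and PCNA and MKI67 (asterisks) in rows and the libraries in columns, with increased dose left of the black line. Red is above and blue below the mean of the gene; AURKB, CDCA8, CENPF and CENPE are reddest in increased dose replicate 27, and CCND2 and PCNA are blue and CCND3 red in standard dose replicates 9 and 41.

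Regulators and partners of these genes were described by 8 further lists with 145 symbols, of which 143 were found and 120 tested. Log2 fold changes were above 0 in 78 and below 0 in 42, with a median of 0.17, and limma called 0 of 120 after adjustment. At an unadjusted p under 0.05, 5 were higher and 3 lower with the increased dose, 6.67% of the 120 in all, against 12.2% of all genes tested. Groups did not overlap in 6 of the 120, which is to be read against 3.81% of all genes.

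Of the 7 tested inhibitors of cyclin-dependent kinases and related proteins, CDKN3, a phosphatase that acts on CDK2, averaged 48.0 ± 10.5 with the increased dose and 93.2 ± 19.5 with the standard dose (SD, n = 5 and 4), with no overlap and a log2 fold change of −0.94 (limma adjusted p = 0.397), −0.71 without replicates 9 and 41. CDKN2B, an inhibitor of CDK4 and CDK6, averaged 243.5 ± 19.7 with the increased dose and 153.9 ± 65.3 with the standard dose, also without overlap, with a log2 fold change of 0.79 (limma adjusted p = 0.401). Without replicates 9 and 41 this was 0.27. CDKN1B, the inhibitor of resting cells, averaged 254.2 ± 52.2 with the increased dose and 267.9 ± 80.3 with the standard dose. Among 13 tested retinoblastoma and E2F partner genes, 10 had positive values. RBL2, a pocket protein of quiescent cells, averaged 16.4 ± 13.3 with the increased dose and 37.0 ± 21.6 with the standard dose (log2 fold change −1.27). RBL2 has no value in the fit without replicates 9 and 41. Its counts in standard dose replicates 17 and 33, 23.8 and 19.1, lay inside the increased dose range of 5.12 to 38.5. LIN54, the subunit of the DREAM complex that binds the TTTGAA word, averaged 110.7 ± 19.5 with the increased dose and 72.2 ± 60.0 with the standard dose (log2 fold change 1.06, and −0.10 without replicates 9 and 41). RB1 averaged 126.4 ± 30.7 with the increased dose and 99.8 ± 44.6 with the standard dose.

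Of 15 tested origin licensing genes, 13 had positive values. The origin recognition subunit ORC2 averaged 31.9 ± 15.3 with the increased dose and 66.7 ± 20.7 with the standard dose (log2 fold change −1.23, and −1.32 without replicates 9 and 41), while its partner ORC4 averaged 41.4 ± 13.2 with the increased dose and 22.0 ± 3.75 with the standard dose without overlap (log2 fold change 0.84, and 0.70 without replicates 9 and 41). GMNN, geminin, which blocks a further round of licensing, averaged 106.9 ± 19.4 with the increased dose and 79.8 ± 12.4 with the standard dose (log2 fold change 0.41, limma adjusted p = 0.471, and 0.28 without replicates 9 and 41). Its groups did not overlap either, but the nearest values were 90.5 in increased dose replicate 3 and 89.6 in standard dose replicate 17. In these libraries 1 read is worth 0.90 and 0.91. Of 16 genes of polymerases, clamp loader and nucleotide supply, RFC4, a clamp loader subunit, averaged 43.3 ± 10.2 with the increased dose and 20.3 ± 11.06 with the standard dose without overlap (log2 fold change 1.19, limma adjusted p = 0.397, and 0.52 without replicates 9 and 41). RFC1, the large subunit of the same complex, averaged 328.3 ± 93.8 with the increased dose and 445.7 ± 67.6 with the standard dose (log2 fold change −0.49, and −0.33 without replicates 9 and 41).

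Of 19 tested genes of mitotic kinases, kinetochore and condensin, the checkpoint gene MAD2L1 averaged 42.2 ± 12.8 with the increased dose and 23.5 ± 4.43 with the standard dose (log2 fold change 0.77, and 0.59 without standard dose replicates 9 and 41). The condensin subunits NCAPD2 and SMC4 had log2 fold changes of 0.80 and −0.04, and 0.34 and 0.02 without replicates 9 and 41. In the anaphase-promoting complex, ANAPC10, ANAPC13 and ANAPC16 had log2 fold changes of −0.74, 0.44 and −0.15, and none of its 15 genes passed an unadjusted p of 0.05. Without replicates 9 and 41 the values of these 3 genes were −0.13, 0.42 and −0.16. Of 23 other cyclins and kinases, CDK16 averaged 57.6 ± 10.6 with the increased dose and 165.8 ± 149 with the standard dose (log2 fold change −1.17, and −0.44 without replicates 9 and 41), where standard dose replicate 9 alone was at 387.9. CCNL2, a cyclin of transcription and splicing, averaged 498.4 ± 40.1 with the increased dose and 357.2 ± 107 with the standard dose (log2 fold change 0.53, and 0.40 without replicates 9 and 41), and CDK6, a partner of the D-type cyclins, averaged 1399 ± 318 with the increased dose and 1142 ± 306 with the standard dose (log2 fold change 0.30, and 0.03 without replicates 9 and 41). Of 12 tested genes of p53 targets and the DNA damage checkpoint, MDM2, the ligase that degrades p53, averaged 85.4 ± 16.4 with the increased dose and 53.1 ± 10.9 with the standard dose without overlap (log2 fold change 0.68, limma adjusted p = 0.401, and 0.53 without replicates 9 and 41). BRCA1 and ATM, of DNA repair and its signalling, had log2 fold changes of −0.84 and −0.19, and −0.31 and 0.18 without replicates 9 and 41.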

How the data were processed

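RNA of 9 lung samples was sequenced by QuantSeq 3′ mRNA-Seq FWD with single reads; RNA of 10 animals had been extracted and the authors rejected 1 library. Per the submitters' processing notes and the methods, the authors checked reads with FastQC, trimmed them with FLEXBAR, mapped them to Sscrofa11.1 with TopHat, counted them per Ensembl gene with HTSeq and compared doses with DESeq2. The deposited signal values are reads per gene after division by the size factor that DESeq2 gave each library. In each library 100% of values were whole multiples (within 0.01) of the value of 1 read, so reads were recovered. The fold changes and p-values of the authors were not used. For replicate 33 the title was followed, although the column name carries another number.

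Groups were taken from the treatment label. The labels name no batch, and nothing says more of the replicates than 1 animal per library. Genes whose normalized counts averaged over 20 entered a two-sided limma 3.58.1 fit (mean-variance trend) of log2(normalized count + 1), and p-values were adjusted over them by Benjamini-Hochberg (threshold 0.05). Single values were tested by exact two-sided permutation of the dose labels. Alternatives were pseudocounts of 0.5 and 5, no filter, at least 10 in at least 4 libraries, TMM factors, quantile normalization, robust variances, edgeR 4.0.16 and DESeq2 1.42.0 on the recovered reads, each library left out, and standard dose replicates 9 and 41 left out. Computations ran in R 4.3.3 and in Python 3.11.15 with pandas 2.3.3, numpy 2.4.6 and scipy 1.17.1, figures came from matplotlib 3.10.9, and the code was tested on simulated data. Positions of genes named alike in the Ensembl and RefSeq annotations overlapped on the same chromosome for 98.8% of 14413 genes.

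The members and lists were chosen with earlier results of these data known. All members are named, with values in every library for the 12 tested members with the smallest limma p and the 4 with the highest mean; of each other list, the 2 genes with the smallest p and the one with the highest mean are named. Per-library values of PCNA, MKI67 and CDC6, and the promoters printed, were chosen after values were seen. Intervals of fold changes rest on the spread between animals, and limits of a count of 0 cover counting error only.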

Additional observations from a re-analysis of the deposited data

Results flagged for a closer look

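Each dose group of each of the 21 tested genes, PCNA and MKI67 was searched for a library far from the others by Dixon's test. In all, 46 groups were searched and 4 stood out. Chance gives about 1 in 20 for normally distributed values. The test used normalized counts without the log, so that rate is only a guide, and high values are flagged more readily. Of the 4 flagged values, 3 were high values of increased dose replicate 27. CENPE was at 175 normalized counts in this library, against 75.2 in the nearest of the other increased dose libraries. AURKB was at 134.1, against 66.0 in the nearest. MCM3 was at 80.1, against 40.1 in the nearest. The last was a low value, MCM6 at 89.5 in increased dose replicate 59, against 110.9 in the nearest. Without replicate 27 the log2 fold change of AURKB was −0.03, and that of CENPE 0.17.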

How the results depend on the processing

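No tested member was called under any of the 19 alternatives. The count of all genes called was 0 in each except DESeq2 on the recovered reads, which called 225, and the cause was not tested. The median log2 fold change of the 21 genes stayed above 0 except without standard dose replicates 9 and 41, where it was −0.016 (0.064 to 0.26 when 1 library was left out). Of 436 values for 23 genes, 404 kept their direction and 32 reversed, 21 of them on leaving out 1 library. Without standard dose replicates 9 and 41 the log2 fold change was −0.016 for CCND1, −0.020 for CCND2, 0.10 for CCND3, −0.21 for MCM4, −0.12 for MCM7, −0.031 for TOP2A, −0.13 for CCNB2, 0.017 for CENPF and −0.13 for PCNA. It was −0.016 for MCM7 with DESeq2 and 0.020 for CENPF with quantile normalization. When 1 library was left out, the log2 fold change ranged from −0.061 to 0.48 for CCNE2, −0.056 to 0.45 for CDK2, −0.43 to 0.088 for MCM3, −0.081 to 0.081 for MCM7, −0.049 to 0.36 for TOP2A, −0.58 to 0.25 for CCNB1, −0.028 to 0.32 for AURKB, −0.19 to 0.17 for CENPF, −0.28 to 0.076 for NUSAP1 and −0.41 to 0.11 for TPX2. MKI67 ranged from 0.87 to 2.08 and fell under the filter without increased dose replicate 19, where it has no value. No paired analysis was possible because the groups share no replicate number. For the 11 named members with a mean of 20 or less, depth limits what can be read.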
